A study of Mus musculus with 15 samples.

Results

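The haematopoietic stem and progenitor regulators described here are 10 genes, Cd34, Flt3, Mecom, Hhex, Meis1, Hoxa9, Hlf, Mycn, Angpt1 and Erg, chosen by name as surface markers, a ligand and transcription factors of stem and early progenitor cells. All 10 were measured, out of 19938 genes on the arrays. Expression had been measured in Klf3 knockout (KO) and wild-type (WT) mice of the FVB/NJ strain, in cells taken from E14.5 fetal liver and split with magnetic beads against TER119, a surface antigen of maturing red cell precursors. There were 3 KO TER119 positive arrays, 4 WT TER119 positive arrays, 4 KO TER119 negative arrays and 4 WT TER119 negative arrays. TER119 positive cells were the fraction held on the column and TER119 negative cells the fraction left after depletion. The deleted part of Klf3 is not given in the labels, nor whether each replicate is its own embryo or pool. The p-values therefore reflect the scatter among these arrays, part of which may be technical. By sex-linked genes, each group except WT TER119 negative held male and female arrays, so its arrays are not all repeats of a single sample.

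Blood formation in the mid-gestation liver starts from stem cells that arrive through the circulation, multiply there and give rise to progenitors of all blood lineages. Stem and early progenitor cells carry the surface protein CD34 and, at the multipotent and lymphoid-primed stages, the receptor tyrosine kinase FLT3. Their state is held by transcription factors such as HOXA9 with its cofactor MEIS1, the ETS factor ERG and the zinc finger protein MECOM, and these genes are known to be shut down as cells commit to the red cell lineage and gain TER119. Several of the 10 are also known from other cells of the liver: Cd34, Erg, Mecom, Hhex and Meis1 from endothelium, Erg, Meis1 and Angpt1 from megakaryocytes, Hhex and Hlf from hepatoblasts, and Angpt1 and Cd34 from stromal cells.

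Values are log2 expression, so a difference of 1 is a doubling of signal. They come from different probes for each gene and are compared only within a gene. A difference was called when its adjusted p, from limma with Benjamini-Hochberg adjustment over all 19938 genes, was under 0.05. No detection calls came with the values, so it is unknown which of the low levels were above background, and differences that end in a low level are not exact. The array names in the labels follow another pattern in each population, so population and any batch shared by its arrays cannot be told apart.

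The fractions were checked first. Alas2, the first enzyme of haem synthesis in red cells, averaged 12.90 ± 0.06 in KO TER119 positive arrays (SD, n = 3) and 7.77 ± 0.40 in KO TER119 negative arrays (SD, n = 4), and 12.86 ± 0.08 against 7.10 ± 0.21 in WT arrays (n = 4 each). Of 26 measured red cell precursor genes, 25 were called higher in WT TER119 positive cells. Markers of other liver cells also stood higher there. The mean of 24 hepatocyte-lineage genes lay between 10.12 and 10.90 in WT TER119 positive arrays, against 5.57 and 7.32 in WT TER119 negative arrays. Among WT arrays, 15 of 18 endothelial, 12 of 18 stromal and 17 of 18 macrophage markers were called higher in TER119 positive cells and 0 lower, whereas 18 of 18 neutrophil precursor markers were called lower. The Klf3 probe set did not separate the genotypes (KO minus WT 0.24, SE 0.20, adjusted p = 0.9998 in TER119 positive cells and -0.04, SE 0.19, adjusted p = 0.947 in TER119 negative cells). A probe set outside the deleted part would check nothing, so genotype is taken from the labels alone, and KO arrays are named KO-labelled below. By Xist and the Y-linked genes, the TER119 negative arrays were 1 male and 3 female among KO-labelled and 4 male and 0 female among WT. KO replicate 4 and WT replicates 2 and 4 stood apart from the other TER119 negative arrays on the first principal component, which held 54.2% of the variance.

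The first comparison asked how the progenitor regulators differ between TER119 positive and TER119 negative cells. They were lower in TER119 positive cells for the most part. The 10 were chosen with earlier results of these data known, so the counts describe them and do not test them against all genes. In WT arrays 8 of 10 were called lower and 0 higher, with a median difference of -0.92, where 29.1% of all genes were called lower and 23.5% higher and the median over all genes was -0.09. In KO-labelled arrays 7 of 10 were called lower and 0 higher, with a median of -0.92, where 26.5% of all genes were called lower and 22.6% higher and the median over all genes was -0.06. These 7 include Mecom, whose second probe set was called higher in KO-labelled arrays (0.50, adjusted p = 0.00828) and in WT (0.37, adjusted p = 0.0288). The largest falls were those of Cd34, Angpt1 and Flt3. The arrays of the populations did not overlap for 8 of the 10 genes in WT (45.6% of all genes) and for 7 in KO-labelled arrays (56.1% of all genes). In bulk samples, fewer cells of a type and less RNA per cell cannot be told apart.

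**Figure D1:**
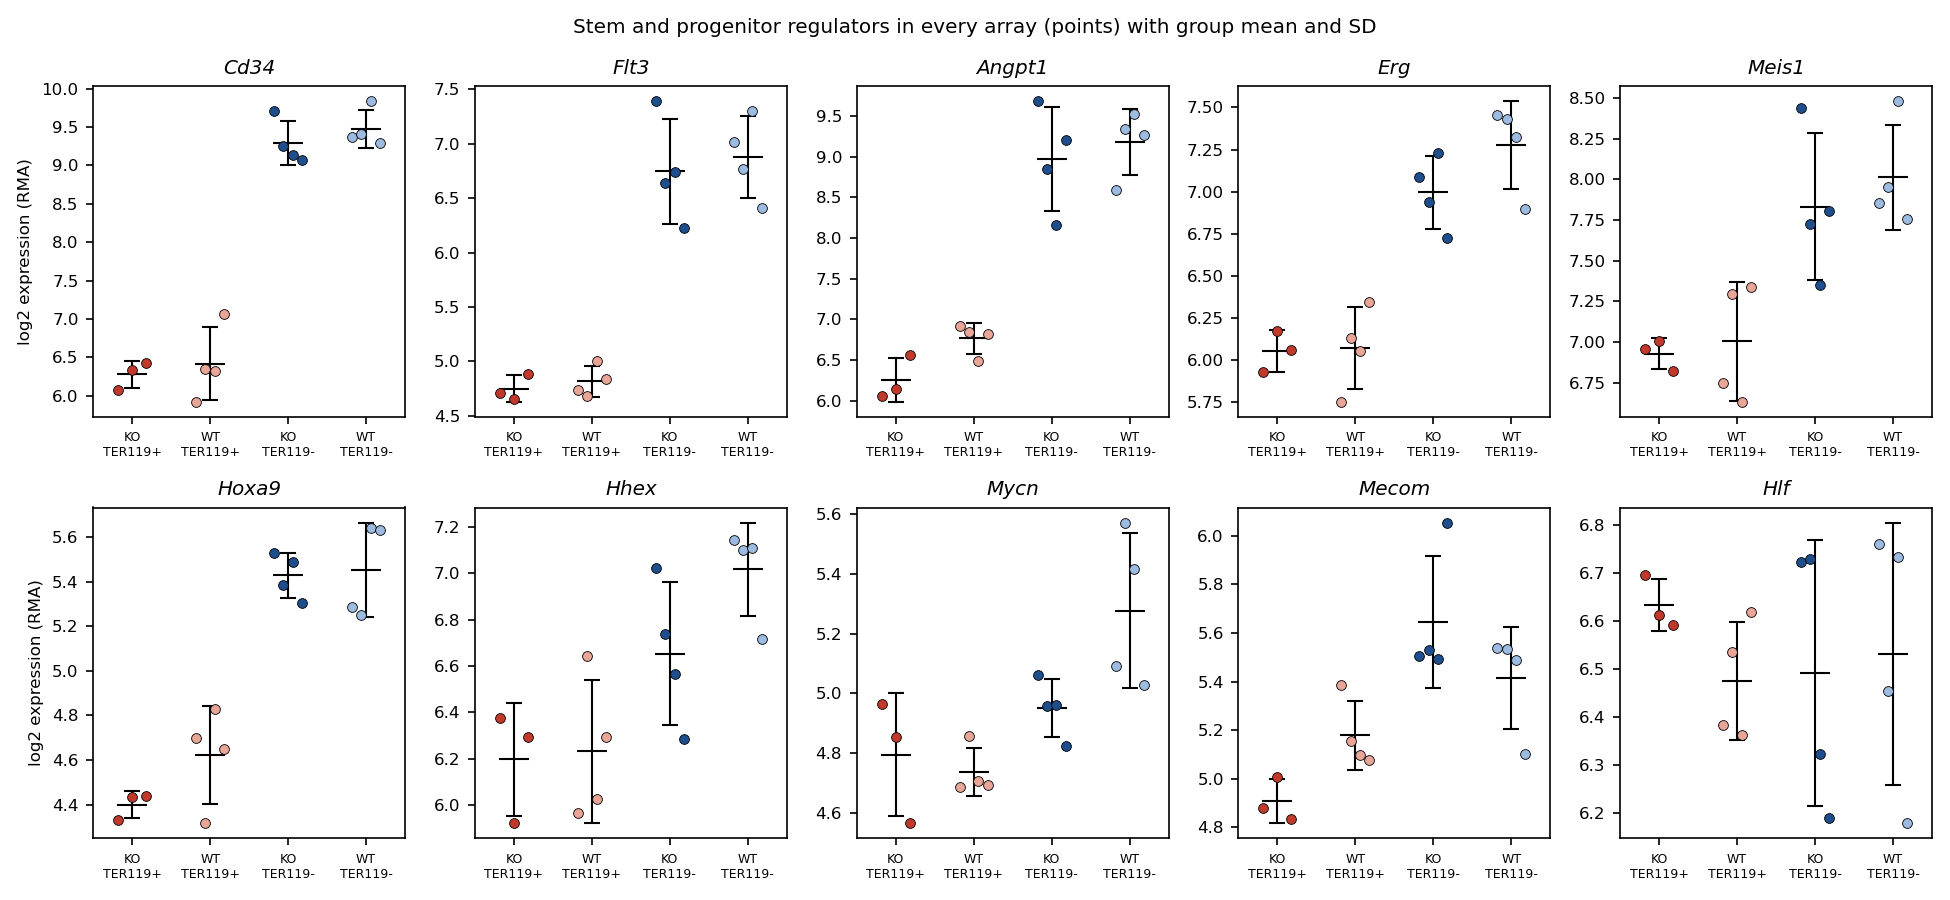
Log2 expression of the 10 genes, one panel per gene, with a point for each array and the group mean and SD as horizontal bars. Groups run KO TER119 positive, WT TER119 positive, KO TER119 negative, WT TER119 negative, and each panel has its own y axis, which does not start at 0. Cd34 sits between 5.92 and 7.07 in the TER119 positive arrays and between 9.07 and 9.84 in the TER119 negative arrays, while the points of Hlf overlap across all 4 groups.

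Cd34 encodes a sialomucin of the cell surface that is used to sort stem and progenitor cells. In KO-labelled arrays Cd34 stood at 6.08, 6.34 and 6.42 in TER119 positive cells, against 9.71, 9.26, 9.13 and 9.07 in TER119 negative cells. WT arrays gave 5.92, 6.35, 6.32 and 7.07 in TER119 positive cells, against 9.36, 9.41, 9.84 and 9.29 in TER119 negative cells. Every TER119 positive array lay below every TER119 negative array, with a gap wider than the spread within any group. Cd34 fell by 3.01 in KO-labelled arrays (SE 0.22, adjusted p = 6.51e-09) and by 3.06 in WT arrays (SE 0.20, adjusted p = 1.88e-09); the WT value is an 8.34-fold difference. WT TER119 positive replicate 4, the highest TER119 positive array for Cd34, was also the highest for the endothelial list (7.42, against 6.40 to 6.91 in the other WT TER119 positive arrays). Among WT TER119 positive arrays it was also highest for the stromal (6.76, against 5.88 to 6.54), megakaryocyte and platelet (9.16, against 8.90 to 9.09) and mast cell lists (4.98, against 4.82 to 4.96). It was lowest among them for the macrophage, neutrophil precursor and B cell progenitor lists. The part of any of these cell types in the Cd34 level was not tested.

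Flt3 encodes the receptor for FLT3 ligand, which supports multipotent and lymphoid progenitors. TER119 positive cells held 4.71, 4.65 and 4.89 in KO-labelled arrays, against 7.39, 6.64, 6.74 and 6.22 in KO-labelled TER119 negative cells. The WT levels were 4.74, 4.68, 5.0045 and 4.84 in TER119 positive cells, against 7.02, 6.77, 7.30 and 6.41 in TER119 negative cells. The TER119 positive arrays were low and close together, and the TER119 negative arrays of both genotypes were spread over about a log2 unit. Flt3 fell by 2.00 in KO-labelled arrays (SE 0.22, adjusted p = 1.07e-06) and by 2.06 in WT arrays (SE 0.21, adjusted p = 2.74e-07).

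Cd34 and Flt3 were among the 3 genes with the largest falls, and their promoters are shown for that reason. They are taken from RefSeq on GRCm38.p6, a C57BL/6J assembly and not the FVB/NJ strain measured, from 250 bases before to 50 bases after the annotated start, 5′ to 3′ on the strand of the gene, and the capitals mark letters matching a KLF-type motif, CCNCNCCC, on either strand. Cd34 is on the plus strand at chr1:194938571-194938870 and Flt3 on the minus strand at chr5:147400440-147400739.
Cd34: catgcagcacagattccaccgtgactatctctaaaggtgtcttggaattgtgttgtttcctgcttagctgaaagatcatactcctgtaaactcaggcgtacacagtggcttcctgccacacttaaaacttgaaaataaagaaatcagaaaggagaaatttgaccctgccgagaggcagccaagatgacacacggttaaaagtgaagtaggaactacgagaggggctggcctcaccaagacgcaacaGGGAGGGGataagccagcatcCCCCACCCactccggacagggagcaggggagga
Flt3: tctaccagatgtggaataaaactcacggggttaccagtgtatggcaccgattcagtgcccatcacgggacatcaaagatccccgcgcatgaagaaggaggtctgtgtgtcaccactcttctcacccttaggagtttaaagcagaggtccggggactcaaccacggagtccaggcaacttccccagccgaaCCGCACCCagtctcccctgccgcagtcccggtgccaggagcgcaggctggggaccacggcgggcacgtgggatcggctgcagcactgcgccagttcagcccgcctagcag
Promoters were found for 9 of the 10 genes, 12 promoters in all, since Mecom has 2 annotated starts and Erg 3. The KLF-type motif was present in 10 of these 12, against 49.5% of all 32851 promoters of this length. A GATA motif, AGATAA, was present in 1 of the 12, at an Erg start, against 11.2% of all promoters. An ETS motif, CCGGAAG, was found in 1, that of Meis1, against 8.86%, and a MEIS motif, TGACAG, in 3, against 19.2%. All were searched on both strands with overlaps allowed, and a match is a description of letters, not a bound site.

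Angpt1 encodes angiopoietin-1, the ligand of the receptor TEK (TIE2), which is made by stem cells, megakaryocytes and stromal cells and acts on stem cells and endothelium. In KO-labelled arrays Angpt1 stood at 6.06, 6.15 and 6.57 in TER119 positive cells, against 9.68, 8.85, 8.16 and 9.20 in TER119 negative cells. WT cells held 6.91, 6.85, 6.49 and 6.82 in the TER119 positive fraction, against 8.59, 9.34, 9.52 and 9.27 in the TER119 negative fraction. All TER119 negative arrays were above all TER119 positive arrays, and KO-labelled TER119 negative replicate 3 was the lowest of them. Angpt1 was lower in TER119 positive cells, with a difference of -2.71 in KO-labelled arrays (SE 0.28, adjusted p = 3.90e-07) and -2.41 in WT arrays (SE 0.26, adjusted p = 6.00e-07). Its receptor gene Tek went the other way, with a difference of 1.08 in KO-labelled arrays (adjusted p = 0.00495) and 0.98 in WT arrays (adjusted p = 0.00525), beside the higher endothelial markers of the TER119 positive fraction. Tek is itself in that endothelial list.

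Erg encodes an ETS factor needed for stem cell maintenance and also active in endothelium and megakaryocytes. It stood at 5.93, 6.18 and 6.06 in KO-labelled TER119 positive cells, against 7.09, 6.94, 7.23 and 6.72 in KO-labelled TER119 negative cells. The WT values were 5.75, 6.13, 6.06 and 6.35 in TER119 positive cells, against 7.46, 7.43, 7.32 and 6.90 in TER119 negative cells. The populations did not overlap in either genotype. Erg fell by 0.94 in KO-labelled arrays (SE 0.16, adjusted p = 0.000104) and by 1.21 in WT arrays (SE 0.15, adjusted p = 3.01e-06). The endothelial list moved in the opposite direction, with medians of 1.12 in KO-labelled and 1.15 in WT arrays.

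Meis1 and Hoxa9 encode partners that bind DNA together and sustain self-renewal, and Hhex encodes a homeobox repressor needed in early blood and liver formation. Meis1 stood at 6.96, 7.01 and 6.82 in KO-labelled TER119 positive cells, against 8.44, 7.73, 7.35 and 7.80 in KO-labelled TER119 negative cells, and at 6.75, 7.30, 6.63 and 7.34 in WT TER119 positive cells, against 7.86, 7.95, 8.48 and 7.76 in WT TER119 negative cells. KO-labelled TER119 negative replicate 3 came close to the highest WT TER119 positive array, but within each genotype the populations did not overlap. Meis1 fell by 0.90 in KO-labelled arrays (SE 0.23, adjusted p = 0.00390) and by 1.01 in WT arrays (SE 0.22, adjusted p = 0.000854). Hoxa9 stood at 4.33, 4.43 and 4.44 in KO-labelled TER119 positive cells, against 5.53, 5.39, 5.49 and 5.30 in KO-labelled TER119 negative cells, and at 4.70, 4.32, 4.83 and 4.65 in WT TER119 positive cells, against 5.29, 5.25, 5.64 and 5.63 in WT TER119 negative cells. The Hoxa9 arrays of the populations did not overlap in either genotype. Hoxa9 fell by 1.03 in KO-labelled arrays (SE 0.13, adjusted p = 4.47e-06) and by 0.83 in WT arrays (SE 0.12, adjusted p = 1.94e-05).

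Hhex stood at 6.38, 5.92 and 6.29 in KO-labelled TER119 positive cells, against 7.02, 6.74, 6.57 and 6.29 in KO-labelled TER119 negative cells. The WT arrays gave 5.97, 6.64, 6.03 and 6.29 in TER119 positive cells, against 7.15, 7.10, 7.11 and 6.72 in TER119 negative cells. In WT the populations were apart, and in KO-labelled arrays the lowest TER119 negative value, in replicate 4, lay within the TER119 positive range. Hhex fell by 0.79 in WT arrays (SE 0.17, adjusted p = 0.00108), and its difference of -0.46 in KO-labelled arrays was not called (SE 0.19, adjusted p = 0.0553). Without KO-labelled TER119 negative replicate 4 the difference was -0.58 and was called (adjusted p = 0.0173). The interaction was not called for Hhex (0.33, SE 0.26, 95% interval -0.21 to 0.87, adjusted p = 0.999), so a difference between the genotypes was not shown. Hepatocyte-lineage genes, among which Hhex is also active, went the other way, with medians of 5.18 in KO-labelled and 4.18 in WT arrays.

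Mycn encodes a MYC family factor that drives growth of stem cells. KO-labelled arrays gave 4.96, 4.85 and 4.57 in TER119 positive cells, against 5.06, 4.96, 4.96 and 4.82 in TER119 negative cells, and WT arrays gave 4.69, 4.86, 4.71 and 4.69 in TER119 positive cells, against 5.09, 5.57, 5.42 and 5.03 in TER119 negative cells. The WT populations did not overlap and the KO-labelled ones did. Mycn fell by 0.54 in WT arrays (SE 0.12, adjusted p = 0.00140), while its difference of -0.16 in KO-labelled arrays was not called (SE 0.13, adjusted p = 0.365). Whether this differs between the genotypes was tested by the interaction, which was not called (0.38, SE 0.18, 95% interval -0.00 to 0.77, adjusted p = 0.999).

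Hlf encodes a PAR-domain leucine zipper factor that marks stem cells and is also active in liver. It stood at 6.70, 6.61 and 6.59 in KO-labelled TER119 positive cells, against 6.72, 6.73, 6.32 and 6.19 in KO-labelled TER119 negative cells, and at 6.38, 6.54, 6.36 and 6.62 in WT TER119 positive cells, against 6.76, 6.46, 6.73 and 6.18 in WT TER119 negative cells. All 4 groups overlapped. The differences were 0.14 in KO-labelled arrays (95% interval -0.19 to 0.47, adjusted p = 0.490) and -0.06 in WT arrays (95% interval -0.36 to 0.25, adjusted p = 0.762). The intervals exclude a fall of the size seen for Cd34, Angpt1 and Flt3, but a small difference was not detectable with these arrays.

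Mecom encodes a zinc finger factor required by stem cells and gives rise to a long and a short protein from separate starts. It was the only one of the 10 genes with 2 probe sets, for which the platform's annotation lists different sets of transcripts, and the one with the higher mean was used. There Mecom stood at 4.88, 5.01 and 4.83 in KO-labelled TER119 positive cells, against 5.50, 5.53, 5.49 and 6.06 in KO-labelled TER119 negative cells, and at 5.39, 5.15, 5.10 and 5.08 in WT TER119 positive cells, against 5.54, 5.54, 5.49 and 5.10 in WT TER119 negative cells. Mecom fell by 0.74 in KO-labelled arrays (SE 0.15, adjusted p = 0.000424), and its difference of -0.24 in WT arrays was not called (SE 0.14, adjusted p = 0.152). Without WT TER119 negative replicate 4 the WT difference was -0.34 and was called (adjusted p = 0.0381).

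The second Mecom probe set moved in the opposite direction. It stood at 5.17, 5.14 and 5.14 in KO-labelled TER119 positive cells, against 4.92, 4.64, 4.45 and 4.57 in KO-labelled TER119 negative cells. WT cells held 4.83, 5.11, 5.18 and 5.53 in the TER119 positive fraction, against 4.75, 4.77, 4.65 and 4.98 in the TER119 negative fraction. The difference was 0.50 in KO-labelled arrays (SE 0.15, adjusted p = 0.00828) and 0.37 in WT arrays (SE 0.13, adjusted p = 0.0288), both called higher. The gene's direction between the populations therefore depends on the probe set, and the mean of both probe sets gave -0.12 in KO-labelled arrays (adjusted p = 0.340) and 0.07 in WT arrays (adjusted p = 0.552). Whether either probe set follows a particular start was not tested. The 2 annotated starts are far apart on chromosome 3, and their promoters are shown because the probe sets disagree. Both are on the minus strand, at chr3:30509710-30510009 for the upstream start and chr3:30013155-30013454 for the downstream start, and capitals mark the KLF-type motif and, in the downstream promoter, CTGTCA, the reverse complement of the MEIS motif.
Mecom upstream start: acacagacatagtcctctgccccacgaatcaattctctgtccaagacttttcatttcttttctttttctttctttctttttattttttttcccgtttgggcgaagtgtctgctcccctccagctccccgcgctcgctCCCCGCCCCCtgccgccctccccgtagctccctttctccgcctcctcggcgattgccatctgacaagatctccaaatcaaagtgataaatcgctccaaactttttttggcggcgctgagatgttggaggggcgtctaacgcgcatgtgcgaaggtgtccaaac
Mecom downstream start: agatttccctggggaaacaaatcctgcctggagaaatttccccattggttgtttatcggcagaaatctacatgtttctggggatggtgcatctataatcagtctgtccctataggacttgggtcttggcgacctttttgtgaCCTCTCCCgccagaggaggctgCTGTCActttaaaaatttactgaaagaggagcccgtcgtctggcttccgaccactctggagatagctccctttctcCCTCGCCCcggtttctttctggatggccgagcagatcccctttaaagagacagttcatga

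**Figure D2:**
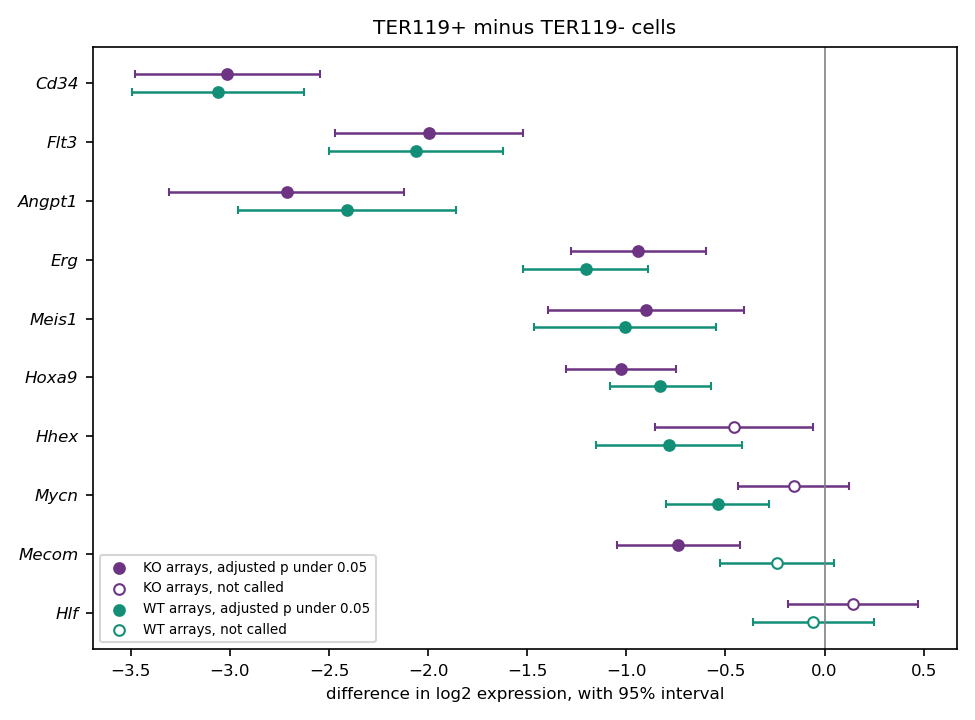
Difference in log2 expression between TER119 positive and TER119 negative cells for each gene (x axis), in KO-labelled arrays and in WT arrays, with 95% intervals from limma. Filled points are called and open points are not. Cd34 lies near -3 in both genotypes and the intervals of Hlf include 0.

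The members were then set beside other genes of stem and progenitor cells. Of 70 measured genes of a wider list, 21 (30.0%) were called higher and 27 (38.6%) lower in KO-labelled TER119 positive cells, with a median of -0.08, where 22.6% of all genes were called higher and 26.5% lower. In WT, 23 (32.9%) were called higher and 30 (42.9%) lower, with a median of -0.15, where 23.5% of all genes were called higher and 29.1% lower. No test of the list against all genes was made, and the counts by function below are read beside the same shares over all genes. Among 18 surface proteins and receptors, 7 were called higher and 7 lower (38.9% each) in KO-labelled cells, and 7 higher (38.9%) and 9 of 18 lower in WT. In WT, Cd48, a surface protein of committed progenitors, fell by 2.94 (SE 0.24, adjusted p = 2.65e-08) and Kit, the receptor for stem cell factor, by 2.48 (SE 0.26, adjusted p = 4.84e-07). Cd33, a sialic acid-binding lectin of myeloid cells, fell by 1.90 (SE 0.15, adjusted p = 1.64e-08). The higher receptor genes included Csf1r, the macrophage growth factor receptor (2.18), Itga2b, the platelet integrin alpha chain (1.92), and the endothelial Tek and Tie1 (0.98 and 0.93).

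Of the list's 34 transcription factor genes, 9 were called higher (26.5%) and 12 lower (35.3%) in KO-labelled TER119 positive cells, and 9 higher (26.5%) and 13 lower (38.2%) in WT. The shares called higher were near those over all genes, 22.6% in KO-labelled cells and 23.5% in WT. In WT, Myb, which keeps progenitors dividing, fell by 2.58 (SE 0.22, adjusted p = 3.32e-08), Ikzf2, which encodes the zinc finger factor HELIOS, by 2.30 (SE 0.11, adjusted p = 5.27e-11), and Satb1, a chromatin organiser of lymphoid progenitors, by 2.07 (SE 0.19, adjusted p = 1.09e-07). Tal1, a factor of both stem cells and red cell precursors, differed by 2.78 (SE 0.14, adjusted p = 9.21e-11) and its partner Lmo2 by 1.89 (SE 0.12, adjusted p = 1.16e-09). Gfi1b, which encodes a transcriptional repressor active in the erythroid and megakaryocyte lineages, differed by 1.86. Pbx3, a cofactor of HOX and MEIS proteins, was not called in KO-labelled cells (0.34, SE 0.18, adjusted p = 0.139) and was called higher in WT (1.04, SE 0.17, adjusted p = 6.78e-05). Of other HOX genes, Hoxa5 was not called in KO-labelled cells (-0.18, SE 0.11, adjusted p = 0.207) and was called lower in WT (-0.26, SE 0.10, adjusted p = 0.0438). The interaction was not called for Pbx3 (-0.69, SE 0.25, adjusted p = 0.834) or Hoxa5 (0.08, SE 0.15, adjusted p = 0.999). Hoxa7 and Hoxa10 were not called in KO-labelled cells (0.07 and -0.02) or in WT (-0.00 and 0.10).

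Among 13 genes of self-renewal and the fetal stem cell program, 2 were called higher (15.4%) and 7 lower (53.8%) in KO-labelled TER119 positive cells, where 22.6% and 26.5% of all genes were. In WT, 4 were called higher (30.8%) and 7 lower (53.8%), where 23.5% and 29.1% of all genes were. In WT, 6 of the 13 differences were above 0 and 7 below. Hmga2, a chromatin protein of fetal stem cells, fell by 0.75 in WT (SE 0.13, adjusted p = 0.000101). Lin28b, which blocks let-7 microRNAs in fetal cells, fell by 0.63 (SE 0.16, adjusted p = 0.00303). Igf2bp1, of the same list, went the other way. It averaged 7.95 ± 0.23 in WT TER119 positive and 7.13 ± 0.78 in WT TER119 negative arrays (SD, n = 4 each). Igf2bp3 averaged 8.56 and 8.49 there. The growth inhibitor gene Cdkn1c stood 3.42 higher (SE 0.21, adjusted p = 6.39e-10). Its values in the WT TER119 positive arrays were 9.05, 9.82, 9.23 and 9.93, where the hepatocyte-lineage mean was 10.12, 10.90, 10.26 and 10.84. Of 5 ligand genes, 3 were called higher and 1 lower in both KO-labelled cells and WT. In WT, Dlk1, which is also a hepatoblast gene, differed by 5.13, Cxcl12 by 2.74 and Kitl, the ligand of KIT, by 2.44, beside the higher hepatocyte-lineage and stromal markers of that fraction. Dlk1 is itself in the hepatocyte-lineage list and Cxcl12 in the stromal list, so these are not separate observations. The part of hepatocyte-lineage or stromal cells in the levels of the ligands and of Cdkn1c was not tested. Flt3l, the ligand of FLT3, was not called (-0.22, SE 0.14, adjusted p = 0.181).

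**Figure D3:**
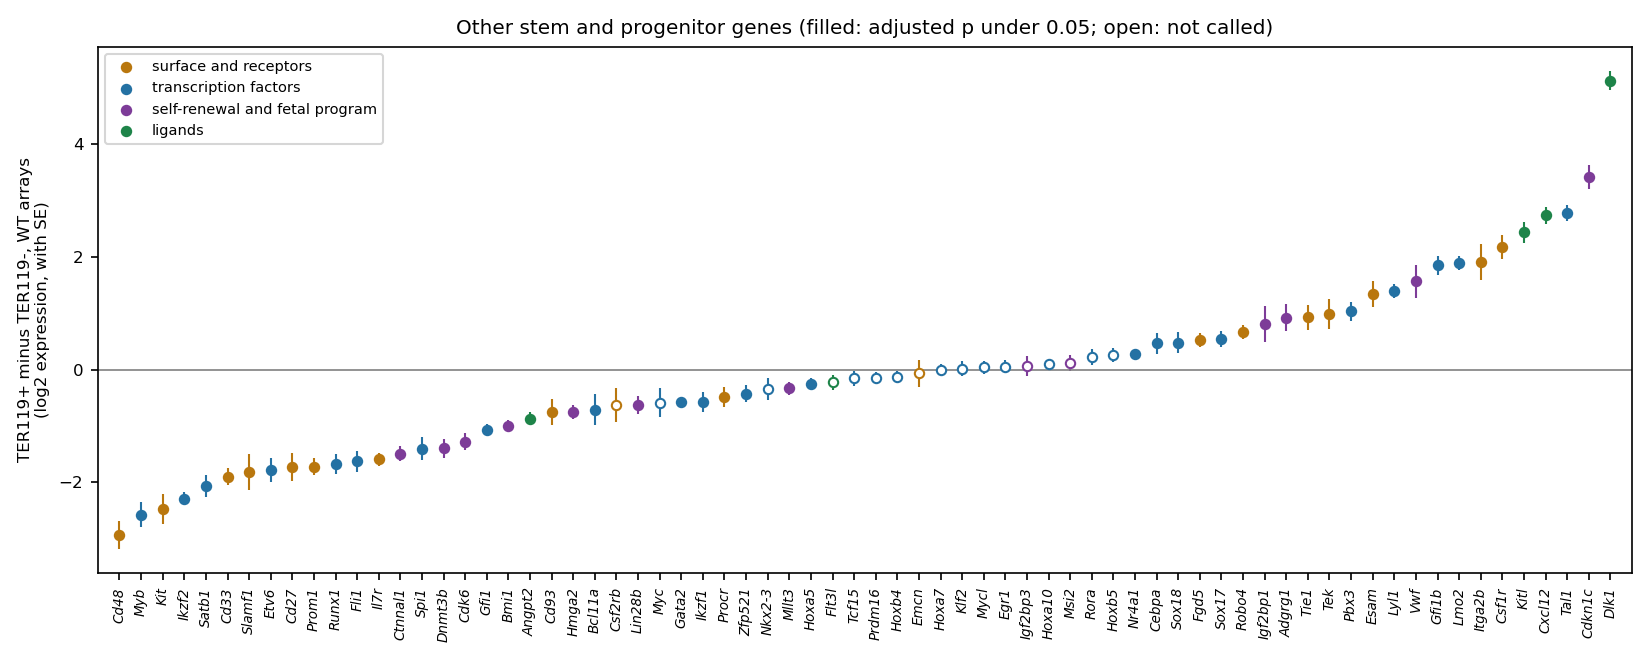
Difference in log2 expression between WT TER119 positive and WT TER119 negative arrays (y axis, with SE) for the 70 measured genes of the wider list, ordered by size along the x axis and coloured by function. Filled points are called and open points are not. Cd48, Myb and Kit stand at the low end and Dlk1, Cdkn1c and Tal1 at the high end.

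The second comparison asked whether the regulators differ between KO-labelled and WT arrays. In TER119 positive cells 0 of 10 were called, where 1.02% of all genes were, and 0 of 10 had an unadjusted p under 0.05, where 5.33% of all genes had. The median difference over the 10 was -0.07, against -0.01 over all genes. Angpt1 had the largest difference, at 6.26 ± 0.27 in KO-labelled arrays (SD, n = 3) and 6.77 ± 0.19 in WT arrays (SD, n = 4), which is -0.51 (SE 0.28, 95% interval -1.10 to 0.08, adjusted p = 0.9998). The arrays of its groups overlapped. On the same arrays the megakaryocyte and platelet list was lower, with 12 of 12 measured genes below 0, a median of -0.78 and 0 called. The means of that list per array lay between 8.04 and 8.48 in KO-labelled and between 8.90 and 9.16 in WT TER119 positive arrays, without overlap, and its part in the Angpt1 values was not tested.

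Mecom was the 1 member whose TER119 positive groups did not overlap, where 10.1% of all genes did not. It differed by -0.27 (SE 0.15, 95% interval -0.58 to 0.04, adjusted p = 0.9998), and its second probe set by -0.01 (SE 0.15). The Hoxa9 difference was -0.22 (95% interval -0.50 to 0.05) and that of Hlf 0.16 (95% interval -0.17 to 0.49). For Cd34, Flt3, Erg, Meis1, Hhex and Mycn the differences lay between -0.14 and 0.06, with intervals that reached at most 0.60 below and 0.42 above 0. Differences within these intervals cannot be told from 0 here, which does not show that the genotypes are alike.

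In TER119 negative cells, where these genes were mostly at their higher levels, 0 of 10 were called, where 0.0853% of all genes were, and 1 of 10, Mycn, had an unadjusted p under 0.05, where 7.56% of all genes had. The differences of 9 genes were below 0 and 1, that of Mecom, above it, where 10719 of all 19938 genes were below 0. Their median was -0.18, against -0.02 over all genes. Mycn averaged 4.95 ± 0.10 in KO-labelled and 5.28 ± 0.26 in WT arrays (SD, n = 4 each), a difference of -0.33 (SE 0.12, 95% interval -0.59 to -0.06, adjusted p = 0.644). Hhex differed by -0.36 (SE 0.17, 95% interval -0.73 to 0.00, adjusted p = 0.655) and Erg by -0.28 (SE 0.15, 95% interval -0.60 to 0.03, adjusted p = 0.655). The groups overlapped for all 10 genes, where 2.63% of all genes did not. Cd34 averaged 9.29 ± 0.29 in KO-labelled and 9.48 ± 0.25 in WT arrays (SD, n = 4 each), a difference of -0.18 (SE 0.20, 95% interval -0.62 to 0.25).

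Sex was uneven across the TER119 negative groups, and hepatocyte-lineage markers were lower in KO-labelled arrays there (23 of 24 below 0, median -0.73, 0 called), while red cell precursor genes were higher (23 of 26 above 0, median 0.26, 0 called). Also below 0 were 12 of 12 megakaryocyte and platelet, 16 of 18 neutrophil precursor, 11 of 12 mast cell and 12 of 14 B cell progenitor genes. The same held for 15 of 18 endothelial, 13 of 18 stromal and 10 of 18 macrophage genes, with 0 called. The part of these list shifts in the members' differences was not tested. With sex as a factor 0 of the 10 members were called, as also without the 3 arrays that stood apart and with the hepatocyte-lineage mean as a covariate. Without those 3 arrays the Mecom difference was -0.00, against 0.23 with them. Since 0 members were called before these adjustments too, the counts do not test the part of sex or hepatocyte-lineage content in the differences.

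**Figure D4:**
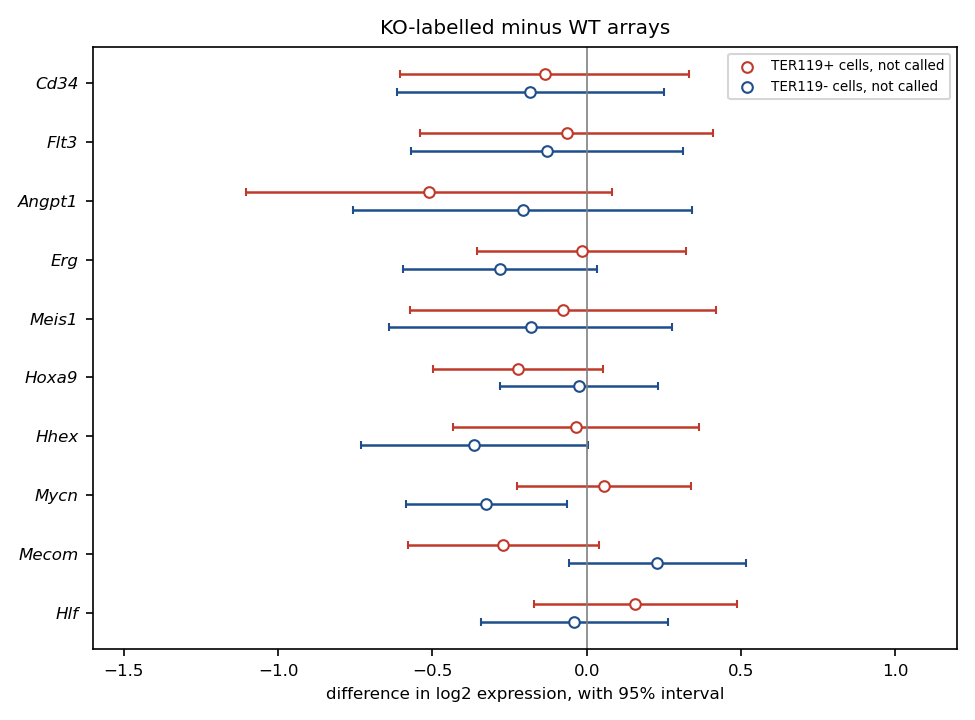
Difference in log2 expression between KO-labelled and WT arrays for each gene (x axis), in TER119 positive and TER119 negative cells, with 95% intervals from limma. All points are open, since 0 of 10 genes were called in either population.

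The difference between the genotype effects of the populations was tested by the interaction. It was called for 0 of 10 members, where 0.436% of all genes were called, and 1 member, Mecom, had an unadjusted p under 0.05, where 4.27% of all genes had (-0.50, SE 0.20, 95% interval -0.92 to -0.08, adjusted p = 0.999). For the second Mecom probe set it was 0.13 (SE 0.20).

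Of the 70 other stem and progenitor genes, 2 were called in KO-labelled TER119 positive cells, both higher (0.903% of all genes were called higher), and 0 in TER119 negative cells. Spi1, which encodes the myeloid and lymphoid factor PU.1, rose by 2.36 (SE 0.22, adjusted p = 5.85e-06), and Ctnnal1, which encodes alpha-catulin, a marker of stem cells, rose by 1.23 (SE 0.15, adjusted p = 9.88e-05). In TER119 negative cells they differed by -0.17 (adjusted p = 0.784) and 0.57 (adjusted p = 0.270), and the interaction, called higher for 0.371% of all genes, was called for Spi1 (2.53, SE 0.30, adjusted p = 0.000216) and not for Ctnnal1 (0.66, SE 0.20, adjusted p = 0.505). After Ctnnal1, the smallest p-values of the list in TER119 negative cells were those of Prom1, a surface glycoprotein (-0.45, SE 0.15, adjusted p = 0.622), and Il7r, the interleukin-7 receptor (-0.31, SE 0.12, adjusted p = 0.644). The direction of Spi1 between the populations differed with the genotype: the TER119 positive minus TER119 negative difference was 1.13 in KO-labelled arrays (SE 0.22, adjusted p = 0.000385) and -1.40 in WT arrays (SE 0.20, adjusted p = 1.85e-05).

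Within the TER119 negative arrays, each of the 10 genes spanned a wider range in at least one genotype than the difference between the genotypes. KO-labelled replicate 1 and WT replicate 3 held the highest values of Cd34, Flt3, Meis1 and Angpt1: Flt3 stood at 7.39 and 7.30 in them, Meis1 at 8.44 and 8.48, and Angpt1 at 9.68 and 9.52. KO-labelled replicate 4 was the lowest array for 5 of the 10 genes, Cd34, Flt3, Hhex, Mycn and Erg, and the highest for Mecom on the probe set used. The megakaryocyte and platelet list was also highest in KO-labelled replicate 1 (9.34) and WT replicate 3 (9.45) and lowest in KO-labelled replicate 3 (7.69) and WT replicate 1 (8.14), the same arrays that held the lowest Angpt1 values (8.16 and 8.59). The endothelial list was also highest in KO-labelled replicate 1 (5.68) and WT replicate 3 (5.70), as was the macrophage list (5.41 and 5.47). Within each genotype, the neutrophil precursor list (9.67 and 9.83) and the mast cell list (6.30 and 6.57) were highest in the same arrays. Those arrays also had the lowest medians over all probe sets (5.28 each). These values are given side by side, and the part of RNA from any of these cell types, or of array scale, in the levels of Angpt1 and Meis1 was not tested.

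**Figure D5:**
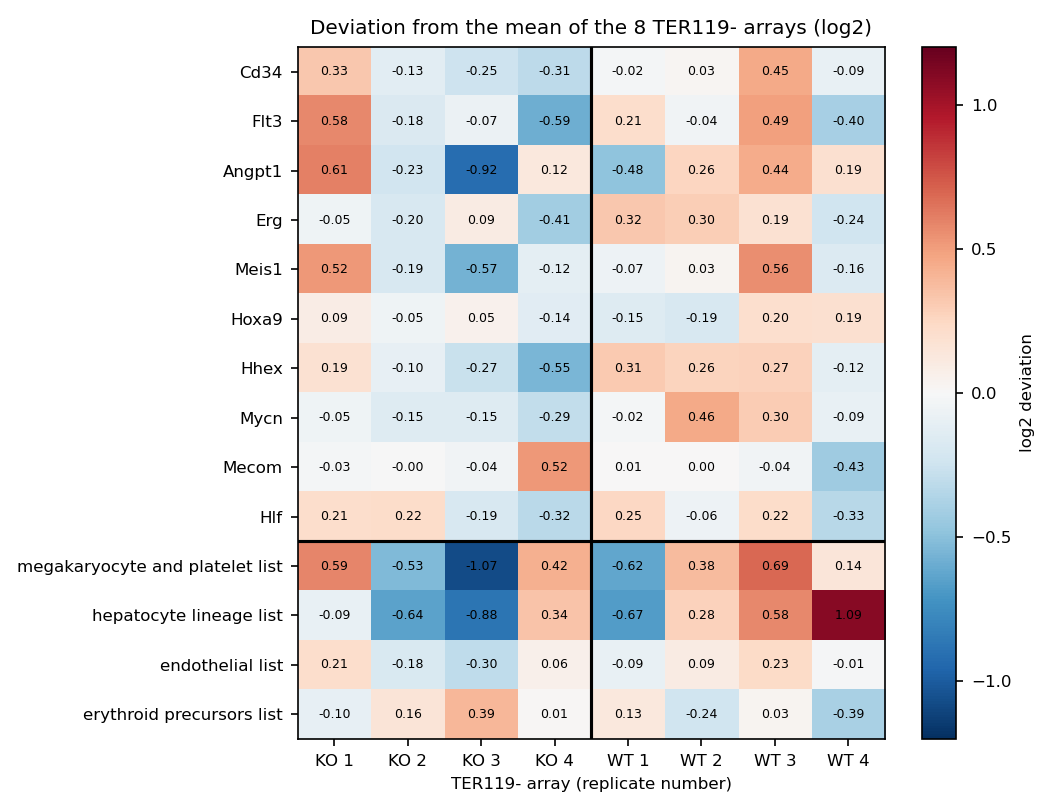
Deviation of each of the 10 genes, and of the mean of 4 marker lists, from its mean over the 8 TER119 negative arrays, in log2 units, with KO-labelled arrays at left and WT arrays at right. Red is above and blue below the mean. Cd34, Flt3, Angpt1 and Meis1 are red in KO-labelled replicate 1 and WT replicate 3, as is the megakaryocyte and platelet list.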

How the data were processed

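Gene expression was measured on 15 Affymetrix MoGene 1.0 ST arrays, per the labels. The authors deposited log2 values per probe set, for which the submitters' processing notes name RMA and Partek without a version; whether all arrays were processed together is not stated. RMA subtracts background, equalises the arrays' distributions and summarises probes, which compresses differences between dim signals. The values lay between 2.91 and 14.26, and array medians between 5.28 and 5.43. Precision is limited by how many arrays there are.

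Of 35399 probe sets, 21789 had 1 gene symbol in the platform's table, 1621 had several and 11989 were unnamed here. The probe set with the highest mean was kept per gene, which left 19938 genes. The fit, in limma 3.58.1 (R 4.3.3), used all 15 arrays with one coefficient for each of the 4 groups, no covariate and no filter. Adjusted p-values are Benjamini-Hochberg over all genes, 2-sided, with a threshold of 0.05; intervals are 95% and unadjusted. The model was also run on simulated data with independent normal noise. Those data lack the differences shared by many genes between the real arrays, so the run does not check the p-values for them.

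The named genes are all 10 members, the first 3 markers of each cell type list, Klf3 and the sex-linked genes. Of the wider list, up to 6 genes per direction were named by size among those called (or the 3 of smallest p). Tek, Tie1, Itga2b, Lmo2, Gfi1b and Pbx3 were chosen from the wider list after their values were seen. So were Flt3l, Hmga2, Lin28b, Igf2bp1, Igf2bp3 and the other HOX genes. The members, lists and alternatives were chosen with earlier results of these data known. Lists were written from general knowledge. Some wider-list genes are also in the cell type lists, among them Tek and Tie1 (endothelial), Csf1r (macrophage) and Itga2b (megakaryocyte and platelet). The same holds for Tal1 and Gfi1b (red cell precursor), Dlk1 (hepatocyte lineage) and Cxcl12 (stromal). Replicate numbers were not taken as pairs. Deviations of same-numbered KO-labelled and WT arrays correlated between -0.38 and 0.65. Those of same-numbered TER119 positive and TER119 negative arrays correlated between -0.312 and 0.125. Some same-numbered fractions differed in sex: KO-labelled replicate 1 was male in TER119 positive and female in TER119 negative cells. No 2 arrays of a group were identical. Sequences are RefSeq's, on GRCm38.p6.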

Additional observations from a re-analysis of the deposited data

Results flagged for a closer look

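In groups of 4 arrays, a single array was far from the other 3 in 4 of 30 cases, by the share of the group's range that its gap took up. Chance alone gives about 1 in 20. Mecom stood at 6.06 in KO-labelled TER119 negative replicate 4, against 5.49 to 5.53 in the other 3. In WT TER119 negative cells Mecom stood at 5.10 in replicate 4, against 5.49 to 5.54. Hhex stood at 6.72 in the same WT array, against 7.10 to 7.15. Both arrays are among the 3 that stood apart on the first principal component. Mycn stood at 4.86 in WT TER119 positive replicate 2, against 4.69 to 4.71. The second Mecom probe set did not repeat the Mecom cases. There KO-labelled TER119 negative replicate 4 stood at 4.57, within the 4.45 to 4.92 of the others. WT TER119 negative replicate 4 was the highest, at 4.98 against 4.65 to 4.77.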

How the results depend on the processing

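Under the alternatives that kept all 10 members, between 6 and 8 were called lower in KO-labelled arrays and 8 or 9 in WT. Requiring a group mean of at least 6 left 7 members, of which 6 were called lower in each. In either genotype comparison and in the interaction 0 were called under any alternative run. Cd34, Flt3, Angpt1, Erg, Meis1 and Hoxa9 were called lower in both genotypes under each alternative that kept them; that filter removed Hoxa9, Mycn and Mecom. The Hhex difference in KO-labelled arrays was called under 10 alternatives, with values between -0.58 and -0.46 and adjusted p between 0.00345 and 0.0476; without KO-labelled TER119 negative replicate 4 it was -0.58 (adjusted p = 0.0173). Mecom in WT was called with array weights (-0.32), without the 3 arrays that stood apart (-0.34) and without WT TER119 negative replicate 4 (-0.34), and in KO-labelled arrays was not called with the mean of its probe sets (-0.12). Of 1275 values of single members, 49 changed sign, 0 of them called in either setting and none over 0.13 in size. Between populations in WT, Mecom turned to 0.0665 with the mean of its probe sets. For KO minus WT in TER119 positive cells, the replicate block gave Cd34 0.0804, Meis1 0.0357 and Erg 0.0742, and the hepatocyte-lineage covariate gave Erg 0.0016. In TER119 negative cells Hoxa9 turned to 0.0093 with quantile normalization, 0.0179 with equal medians, 0.0383 with array weights and 0.0044 without the 3 arrays. There, Hlf turned to 0.0019 with equal medians and 0.0368 with sex as a factor, Mecom to -0.0046 without the 3 arrays, and Meis1 to 0.0147 and Angpt1 to 0.0832 with the covariate. For the interaction, Cd34 turned to -0.0081 with equal medians and -0.0599 with the covariate, and Meis1 to -0.1269 with the covariate. Leaving out each array in turn moved Hlf across 0 between populations in WT, from -0.1744 to 0.0197. For KO minus WT in TER119 positive cells these ranges were Mycn -0.027 to 0.1718, Erg -0.1229 to 0.0742, Hhex -0.1251 to 0.1032, Meis1 -0.2001 to 0.0357 and Cd34 -0.3018 to 0.0804. In TER119 negative cells they were Hlf -0.1582 to 0.0599, Angpt1 -0.444 to 0.0645, Flt3 -0.3431 to 0.0457 and Hoxa9 -0.0925 to 0.0381. For the interaction they were Cd34 -0.1186 to 0.2636, Flt3 -0.1105 to 0.2783 and Meis1 -0.0554 to 0.3072. The cause of these changes was not tested. The replicate block, in which arrays without a partner add nothing to the difference, gave 8 members called in WT and 8 in KO-labelled arrays, Hhex being added. Replicate numbers are not known to pair these arrays. Same-numbered fractions differed in sex for KO-labelled replicates 1 and 2 and WT replicates 1 and 4, so those are not pairs from the same embryo. Over all genes, calls ranged from 4 to 31 in KO-labelled against WT TER119 negative cells (17 in the setting reported; 10 with the block, 11 without KO-labelled TER119 positive replicate 1 or 2 or KO-labelled TER119 negative replicate 2, 8 without KO-labelled TER119 negative replicate 3 or WT TER119 negative replicate 2), up to 386 in TER119 positive cells (203; array weights) and from 60 to 130 for the interaction (87). Spi1 and Ctnnal1 were the 2 wider-list genes called in TER119 positive cells, and between 2 and 5 were called under the alternatives.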
